A study of Mus musculus with 8 samples.

Results

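Prdm4 ChIP-seq in mouse embryonic stem cells (ESCs) gave 394 sites that lay in the neighbourhood of a gene but away from the start sites of protein-coding transcripts. The sites were chosen by merging the peaks of the 4 anti-GFP samples that overlapped by at least 1 bp, keeping the merged intervals that held a peak of all 4 samples, and selecting those whose centre was more than 5 kb and at most 50 kb from the nearest protein-coding transcription start site (TSS). The peaks merged into 2343 intervals on chromosomes 1 to 19 and X, of which 900 held a peak of all 4 samples, and the 394 sites were 16.8% of all intervals. The other shared intervals were 271 within 5 kb of a TSS (promoter-proximal) and 235 more than 50 kb away (far distal). Of the 394 sites, 244 were intergenic, 137 were intronic and 13 were in exons. Because the peak calls chose the sites, their scores are given here as a description, and tests were run only on sequence, which the choice did not use. Distance from a TSS was part of the choice and also sets the promoter-proximal and far distal classes, whereas intron, exon and intergenic place was not part of it. The main pattern was one of sequence: 46.7% of the sites held DNA that recurred elsewhere among the shared intervals, this share was 61.1% for intergenic and 24.8% for intronic sites, and among the sites whose central 200 bp was in no such group, a grouping added after seeing the data, the density was 2.29 per 10 Mb in introns and 2.18 between genes.

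The cells were CCE ESCs, a line of 129/Sv origin, that carried a stably integrated Prdm4-EGFP transgene driven by the chicken beta-actin promoter in addition to their own Prdm4. There were 2 independent clones, B1 (replicates 1 and 2) and B6 (replicates 3 and 4), each precipitated in 2 experiments with an anti-GFP monoclonal antibody, and each experiment had a control precipitation with mouse IgG. The 4 anti-GFP peak lists held 1470, 1806, 1446 and 1266 peaks in replicates 1 to 4, and no peak list of the 4 IgG samples was used here. The tagged protein was expressed from a strong promoter in clones, so the sites are those of Prdm4-EGFP in these cells, and with 1 condition the data hold no comparison of treatments. The peak lists give no read numbers, and how deeply each library was sequenced is not known from them. A score is the number that the peak caller gave a peak when it compared the anti-GFP sample with the IgG control. Its scale is not named in the sources used here, and a larger score is read only as a stronger call.

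Prdm4 belongs to the PRDM family, whose members pair a PR domain, related to the SET domain of histone methyltransferases, with zinc fingers that bind DNA. Transcription factors occupy promoters, and also enhancers and other elements within introns or between genes, which can act on a gene from many kilobases away. The nearest gene is therefore a position and not a target. Mammalian genomes also hold many near-identical copies of mobile DNA, and such a family can carry the recognition sequence of a factor to many places at once.

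The sequences below are the motif matches that the highest-scoring sites shared. The study had found a motif in peaks of these same libraries, so its presence in the sites is not independent evidence of binding. It was searched here on both strands as GGG and CTNGAAAC separated by 1 to 4 free bases: GGGNCTNGAAAC, GGGNNCTNGAAAC, GGGNNNCTNGAAAC and GGGNNNNCTNGAAAC. A longer run of G can fit several of these forms at 1 GAAAC, and the longest form was then counted, once. A match with mismatches had to keep GAAAC whole. The 12 sites with the highest geometric mean score all held an exact match. It is shown for 11 of them, in capitals, with 12 flanking bases on each side (7 for the exonic Pth2 site). Each is read 5′ to 3′ in the direction of the motif from the mm9 assembly and carries the name of the nearest gene, and where a gene was nearest to 2 sites these are numbered by position.
Copz2 (chr11:96734383-96734421, plus strand): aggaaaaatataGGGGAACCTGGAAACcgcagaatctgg
1600021P15Rik (chr16:28936649-28936687, plus strand): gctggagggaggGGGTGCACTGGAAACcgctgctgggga
Pth2 (chr7:52430605-52430633, minus strand): ggagtctGGGTATCCTTGAAACtgctagt
Mrpl45 (chr11:97168799-97168837, minus strand): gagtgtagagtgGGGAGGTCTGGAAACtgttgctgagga
Tmem45b_1 (chr9:31249311-31249349, minus strand): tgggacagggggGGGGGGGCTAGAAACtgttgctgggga
Esr2 (chr12:77310672-77310708, minus strand): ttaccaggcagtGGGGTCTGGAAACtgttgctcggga
Tiam1_2 (chr16:90158804-90158842, minus strand): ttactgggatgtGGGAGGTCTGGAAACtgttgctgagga
A430084P05Rik (chr11:70640966-70641002, minus strand): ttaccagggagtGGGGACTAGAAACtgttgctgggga
Ltc4s (chr11:50065805-50065843, plus strand): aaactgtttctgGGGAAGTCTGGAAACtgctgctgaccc
Mb (chr15:76889154-76889192, plus strand): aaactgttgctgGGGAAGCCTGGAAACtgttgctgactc
Dkk4 (chr8:23724490-23724528, plus strand): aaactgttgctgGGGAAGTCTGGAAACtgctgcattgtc
In 9 of the 12 highest sites (all but Copz2, Pth2 and Mb) the central 200 bp belonged to the same group of similar sequences, called group A below. At Mb the match lay 256.0 bp from the centre of the interval and at Pth2 160.0 bp, and at Copz2 10.5 bp. Mb was the only site in which 2 peaks of a sample had been merged, so its centre need not lie on the scored peak. The 12 bases printed before its match are the same as those at the group A site Dkk4. Whether the Mb match lies in group A DNA was not tested.

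The highest geometric mean score of all sites was at an intergenic site 23.2 kb downstream of the TSS of Copz2, a subunit of the COPI vesicle coat. Its scores were 336.39, 318.67, 311.01 and 326.9 in replicates 1 to 4, a geometric mean of 323.1, and it held 4 exact motif matches, the most of any site. The site nearest to 1600021P15Rik followed, intergenic and 6.87 kb from the TSS. It had scores of 262.42, 308.83, 254.64 and 352.05. Next came an exonic site in the 3′ untranslated part of Slc17a7, a vesicular glutamate transporter, 5.77 kb from the TSS of Pth2, which encodes a neuropeptide, with 280.48, 250.18, 323.5 and 263.27. At these sites the values of the 2 clones overlapped, and the order of the 3 sites differed between replicates.

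The other intergenic sites among the 12 highest are given here with their nearest genes. The site 8.15 kb from Mrpl45, a mitochondrial ribosomal protein, had scores of 258.53, 275.11, 280.75 and 284.86. The site 14.8 kb from Tiam1, an exchange factor for the GTPase Rac, had 257.46, 268.01, 228.56 and 217.41. At Mrpl45 both B6 values were above both B1 values, and at Tiam1 both B1 values were above both B6 values. The site 14.9 kb from A430084P05Rik had 206.97, 228.76, 257.63 and 273.47, again with B6 above B1. The site 13.7 kb from Ltc4s, leukotriene C4 synthase, had 205.04, 216.94, 297.45 and 213.42, with replicate 3 apart from the rest. At the site 8.33 kb from Mb, which encodes myoglobin, the scores were 181.87, 176.31, 251.79 and 248.03, so that the clones did not overlap. The site 10 kb from Dkk4, a secreted Wnt inhibitor, had 180.89, 208.28, 206.22 and 181.3, and the site 21.3 kb from Hspd1, the mitochondrial chaperonin, had 149.29, 211.98, 234.84 and 182.67, and in both the clones overlapped.

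The 2 intronic sites among the 12 highest both belonged to group A. A site in intron 1 of Tmem45b, 22.5 kb from its TSS, had 213.19, 344.53, 348.47 and 214.52, so the replicates of each clone differed more than the clones did. A site in intron 7 of Tex21, 32.5 kb from the TSS of Esr2, the estrogen receptor beta gene, had 266.61, 296.77, 218.17 and 260.52.

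**Figure D1:**
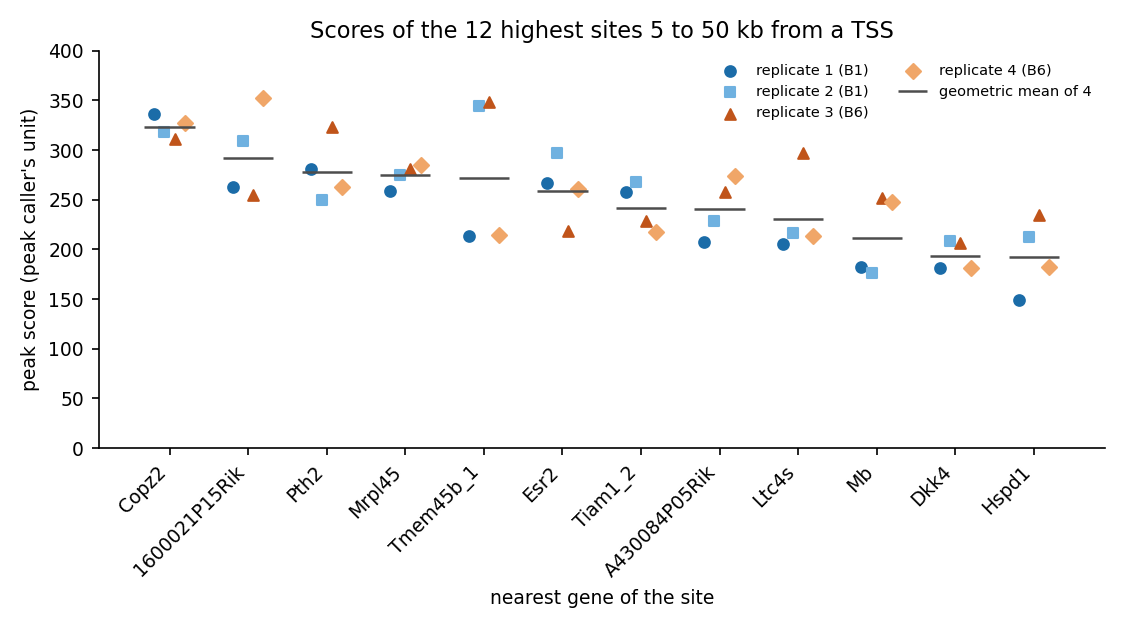
Peak scores in the unit of the peak caller (vertical axis) of the 12 sites with the highest geometric mean, named by nearest gene (horizontal axis), with 1 point for each anti-GFP sample and a line at the geometric mean of the 4. Geometric means run from 323.1 at Copz2 to 192 at Hspd1, and the spread between samples at one site, such as 213.19 to 348.47 at Tmem45b_1, is larger than most steps between neighbouring sites.

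Over all 394 sites the median score was 29.9, 31.3, 28 and 23 in replicates 1 to 4, and the geometric mean over the 4 samples was 26.4 at the median site, 5.16 at the lowest and 323.1 at the highest. All 4 scores were at least 10 at 274 sites (69.5%) and at least 100 at 39. The samples ranked the sites alike, with Spearman's rho of 0.825 to 0.859 between pairs of replicates over the same 394 sites, which share the genome, the antibody and the choice of intervals present in every list. The SD of log10 score over the 4 samples had a median of 0.128. The highest of the 4 scores was in replicates 1 to 4 at 98, 152, 93 and 51 sites, and the lowest at 85, 51, 93 and 165 sites. Replicate 2 was thus the highest more often than the others and replicate 4 the lowest. Both B1 scores were above both B6 scores at 123 sites (31.2%), against 30.3% of all 900 shared intervals, and both B6 scores were above both B1 scores at 44 (11.2%), against 12.8%. These shares were near those of all shared intervals and show nothing particular to the sites. By place, B1 was above B6 at 42 intronic sites (30.7%) and 75 intergenic sites (30.7%), and B6 above B1 at 12 (8.76%) and 31 (12.7%).

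The zone of the genome from 5 to 50 kb of a protein-coding TSS held 965.6 Mb, 37.8% of the bases, and of its bases 48.9% were intergenic, 47.5% intronic and 3.59% exonic. Of the sites, 61.9% were intergenic (exact 95% binomial interval 56.9 to 66.7), 34.8% intronic (30.1 to 39.7) and 3.3% exonic (1.77 to 5.58). Intergenic DNA thus held 5.16 sites per 10 Mb and introns 2.99. The intergenic density was 5.48 at 5 to 10 kb, 5.12 at 10 to 20 kb, 5.22 at 20 to 30 kb, 4.85 at 30 to 40 kb and 5.11 at 40 to 50 kb, so it did not fall steadily with distance. The intronic density was 3.89, 2.53, 3.13, 3.22 and 1.93 in the same bins, the last on 10 sites only, and was below the intergenic one in every bin. Over all places the density was 4.69, 3.75, 4.17, 4.14 and 3.65 in these bins, without a steady fall.

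**Figure D2:**
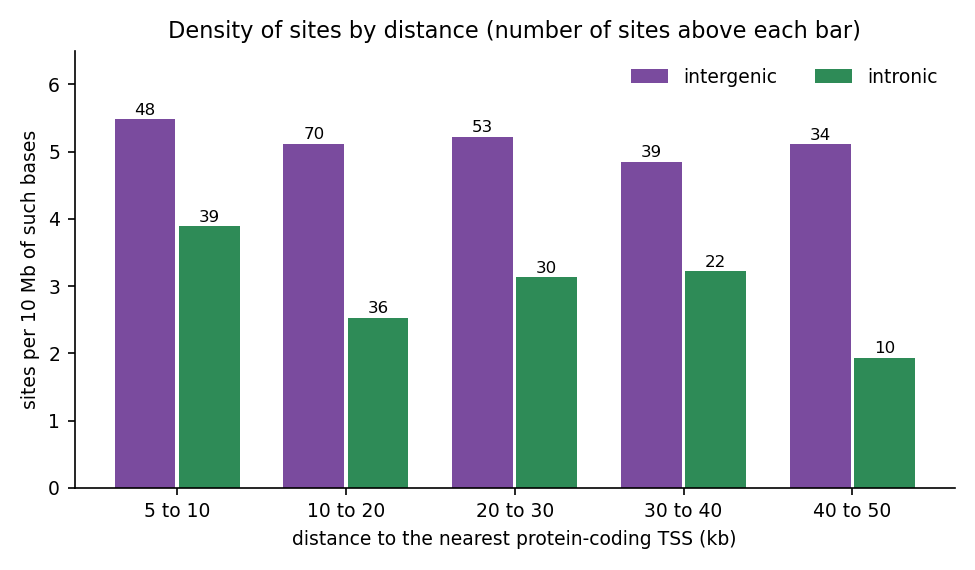
Sites per 10 Mb of intergenic or intronic bases (vertical axis) by distance to the nearest protein-coding TSS in kb (horizontal axis), with the number of sites above each bar. Intergenic bars stay between 4.85 and 5.48, and intronic bars lie below them in each bin, between 1.93 and 3.89.

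The median distance was 17.1 kb for intronic and 20.4 kb for intergenic sites, and the median width of a site was 383.5 bp. The sites lay upstream of the TSS in 213 cases (54.1%), against 45.4% of the bases of the zone. For intergenic sites this was 176 (72.1%) against 66.8% of bases, and for intronic sites 32 (23.4%) against 24.9%. Of the intronic sites, 111 (81%) were in an intron of their own nearest gene and 26 in an intron of another gene. The first intron held 49 of the 137 (35.8%, exact 95% binomial interval 27.8 to 44.4), against 27.9% of the intronic bases of the zone, which is just inside that interval. A TSS of a transcript not annotated as protein-coding lay within 5 kb of 46 sites (11.7%). Such a transcript can be a noncoding form of a protein-coding gene, a long noncoding RNA or a pseudogene, and the 46 were not split by type. Inside a transcript not annotated as protein-coding were 9 intergenic sites. The median GC content of the central 200 bp was 51.5%, against 43% in windows of the zone.

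Intronic and intergenic sites differed in score by less than the spread between samples. The geometric mean score of the intronic sites was 30.4, 34.3, 28.6 and 25.8 in replicates 1 to 4, and that of the intergenic sites 31, 33.9, 30.5 and 25.4. The ratio of intronic to intergenic was 0.987 ± 0.0374 (SD, n = 4), below 1 in replicates 1 and 3 and above 1 in replicates 2 and 4. The median geometric mean score was 28.4 for intronic and 24.7 for intergenic sites. When sites were separated by sequence group, the intronic median was the higher one in both parts: 67.8 (21 sites) against 39.8 (104 sites) in group A, and 24.5 (105 sites) against 19 (103 sites) among those in no group. Of the 13 exonic sites 11 lay in a 3′ untranslated region and 2 in a coding exon, and 7 held an exact motif match. Their hosts were Des (desmin), Notch1, Tpx2, Arhgef19, Slc17a7, Abhd2, Plvap, Fbxl2, Pigl, Rreb1, BC024139, Cyb5r3 and Tmem39a. The 12 of them in no similarity group had a median of 62.6, with 153.4 in Plvap, an endothelial membrane protein gene, and 126.1 in exon 10 of Rreb1, a zinc finger factor, as the highest after Slc17a7.

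The motif was the sequence feature that most sites shared. An exact match lay in 188 sites (47.7%, exact 95% binomial interval 42.7 to 52.8), 132 (33.5%) had 1 mismatch at best, 43 (10.9%) had 2, and 31 (7.87%) had no match with up to 2. In the central 200 bp alone the exact share was 46.7%, against 0.137% of the 4827837 windows of 200 bp in the zone, and the share with GAAAC itself was 94.7% against 37.1%. The exact matches lay close to the centre of their site, within 50 bp in 168 of 188 (89.4%) at a median of 15.5 bp. The spacer of 4 free bases was the most common, with 130 sites (69.1%), followed by 3 bases with 28, 2 bases with 23 and 1 base with 7, and at 68 of the 188 sites the match also fitted a shorter form. The free base just before GAAAC was G in 116 exact matches (61.7%), A in 34, T in 34 and C in 4. More than 1 exact match lay in 61 sites. There were 97 different exact sequences, and the most frequent, GGGAAGTCTGGAAAC, was in 24 sites, all in group A.

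Scores were higher at sites with an exact match. The median geometric mean score was 38.5 with an exact match, 21.5 with 1 mismatch, 21 with 2 and 14.2 with none, and in each of the 4 samples the exact sites had the highest median (41.9, 48.3, 40.5 and 37.1) and the sites without a match the lowest (18.2, 22.2, 17.3 and 12.5). An exact match was in 40 of the 50 sites with the highest score and in 14 of the 50 with the lowest. Within group A the median of exact sites was 56.2 (107 sites), and among sites in no group it was 29.9 (79 sites). With 1 mismatch the medians were 24.8 (17 sites) in group A and 21 (74 sites) in no group. Sites in no group had 21.4 (38 sites) with 2 mismatches and 14.2 (29 sites) with no match. By spacer the medians were 56.7 for 1 base (7 sites), 28.4 for 2, 29.1 for 3 and 41.1 for 4. The site in an intron of Shb, picked out after its value was seen, had a geometric mean of 138.8 and no match with up to 2 mismatches.

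**Figure D3:**
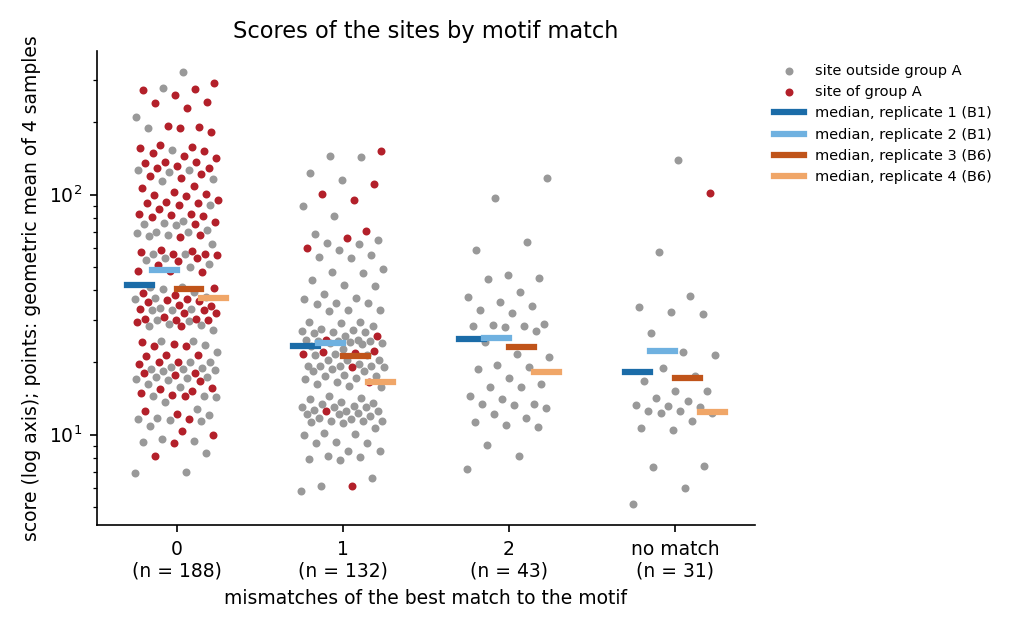
Geometric mean score of the 4 samples for each site (points, log axis) by the number of mismatches of its best motif match (horizontal axis), with sites of group A in red and bars at the median of each sample. The median bars of the 188 exact sites, 37.1 to 48.3, lie above those of the other classes in all 4 samples, while the ranges of the classes overlap widely.

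Of the 7127 exact matches in the zone, 256 (3.59%) lay in a site, so most exact matches had no site. The share was 5.01% between genes (174 of 3475), 2.16% in introns (74 of 3422) and 3.48% in exons (8 of 230). Windows with an exact match were about as common between genes (0.136%) as in introns (0.138%).

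Compared with the other shared intervals, an exact match was more common in the sites than in promoter-proximal intervals (47.7% against 38% of 271, two-sided Fisher's exact test with Benjamini-Hochberg adjustment over 6 comparisons, adjusted p = 0.0207), and it was in 48.9% of the 235 far distal intervals (exact p = 0.805 before adjustment). The intervals are not independent of each other, because 107 of the 188 sites with an exact match held the similar sequences of group A. The p-values describe these samples only. An exact match was in 40.9% of intronic and 51.2% of intergenic sites, a difference that did not pass the threshold (exact test, adjusted p = 0.0661). The adjusted p of this exact test was 0.0349 to 0.0871 as each replicate was left out in turn. Outside the similarity groups the sites and the promoter-proximal intervals had shares of 35.7% (75 of 210) and 35.3% (77 of 218), with an adjusted exact p of 1. At a minimum score of 20 in every sample the shares were 65% (119 of 183) and 55.9% (66 of 118), a difference about as large that did not pass the threshold with these fewer intervals (exact test, adjusted p = 0.14). Far distal intervals outside the groups had 35.6% (31 of 87), and intronic and intergenic sites 34% (35 of 103) and 34.7% (33 of 95).

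The similarity groups were built by aligning the 900 shared intervals to one another. An interval was grouped when at least 100 bp aligned at 70% identity within a group of 3 or more. By whole intervals, 184 sites (46.7%, exact 95% binomial interval 41.7 to 51.8) were in a group, against 53 of 271 promoter-proximal intervals (19.6%, two-sided Fisher's exact test with Benjamini-Hochberg adjustment, adjusted p = 1.66e-12) and 148 of 235 far distal ones (63%, adjusted p = 0.000201). Among the sites, 149 of 244 intergenic (61.1%) and 34 of 137 intronic (24.8%) were grouped (exact test, adjusted p = 2.66e-11). The similar intervals are copies of related DNA and so not independent of each other, and the p-values describe these 4 samples. The paper had already reported that a part of its Prdm4 peaks lay in ERV1:RLTR23 repeats. Whether the groups found here belong to that repeat family was not tested. With the central 200 bp in place of the whole interval, chosen after seeing the data, the shares were 44.2% for the sites, 17.3% for promoter-proximal and 60.9% for far distal intervals, and 57.8% and 23.4% for intergenic and intronic sites.

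The central windows fell into 3 main groups. One member of each is printed in full, chosen because its window aligned to many other members, with the best motif match in capitals.
Group A, Nrsn2 (chr2:152191400-152191599, minus strand): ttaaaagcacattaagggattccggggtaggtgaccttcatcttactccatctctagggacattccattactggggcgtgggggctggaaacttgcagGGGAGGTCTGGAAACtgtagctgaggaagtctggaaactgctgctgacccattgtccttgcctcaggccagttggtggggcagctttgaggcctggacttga
Group B, Abcc4 (chr14:119072183-119072382, minus strand): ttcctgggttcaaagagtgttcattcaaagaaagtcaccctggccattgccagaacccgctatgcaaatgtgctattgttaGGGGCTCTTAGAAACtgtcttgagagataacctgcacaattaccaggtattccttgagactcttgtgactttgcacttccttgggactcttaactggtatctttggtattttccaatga
Group C, Kcnc2 (chr10:111666457-111666656, plus strand): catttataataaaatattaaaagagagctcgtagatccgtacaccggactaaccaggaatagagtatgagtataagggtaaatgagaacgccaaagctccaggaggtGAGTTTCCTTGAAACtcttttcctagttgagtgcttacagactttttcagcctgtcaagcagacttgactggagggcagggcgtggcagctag
The Nrsn2 site had scores of 178.12, 121.48, 129.21 and 105.82, the Abcc4 site 9.95, 11.49, 22.03 and 10.11, and the Kcnc2 site 20.84, 30.56, 16.41 and 25.86. The group A site lay above the other 2 in every sample.

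Group A held 125 of the sites (31.7%), 104 of them intergenic and 21 intronic. An exact motif match was in 107 (85.6%) and 1 mismatch in 17. Its median geometric mean score was 54.2, with medians of 53.8, 56.4, 53.5 and 49.5 in replicates 1 to 4, and it made up 34 of the 50 highest sites and 6 of the 50 lowest. Group B held 31 sites, 24 intergenic, 6 intronic and 1 exonic, and every one had a best match with 1 mismatch, always at the C of CTNGAAAC. Its median score was 18.4, with medians of 18.2, 22.3, 19.2 and 14.2, and it made up 10 of the 50 lowest sites. Group C held 12 sites, 10 intergenic and 2 intronic, with a median score of 18.6, and 1 of them had an exact match. The lower scores of group B than of group A held in each of the 4 samples. A further 6 sites were in smaller groups, and 220 were in none (105 intronic, 103 intergenic and 12 exonic) with a median score of 21.7.

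Group A made up 42.6% of intergenic and 15.3% of intronic sites, 10.3% of promoter-proximal and 40.9% of far distal intervals. Group C was at 4.1% and 1.46% of intergenic and intronic sites and 11.1% of far distal intervals. Sites in no group had a density of 2.18 per 10 Mb between genes and 2.29 in introns, whereas sites of group A had 2.2 between genes and 0.458 in introns, and those of group B 0.508 and 0.131. The densities in introns and between genes thus differed mainly among the grouped sites.

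**Figure D4:**
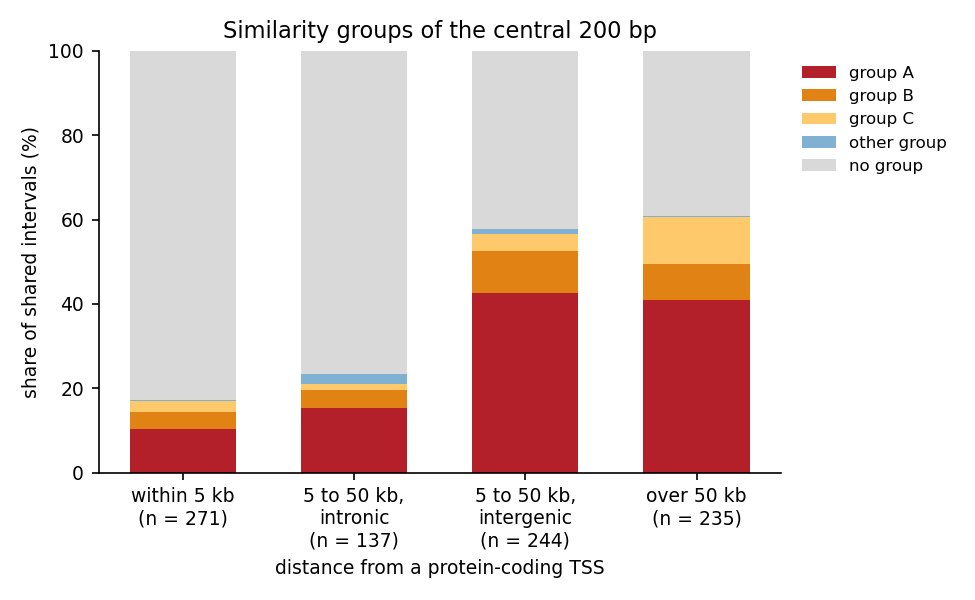
Share of shared intervals (vertical axis, %) whose central 200 bp fell in similarity group A, B, C, another group or none, for promoter-proximal intervals (n = 271), intronic (n = 137) and intergenic (n = 244) sites 5 to 50 kb from a TSS, and far distal intervals (n = 235). Group A is 42.6% of intergenic and 40.9% of far distal intervals, against 15.3% of intronic and 10.3% of promoter-proximal ones.

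The printed members were then aligned to the whole mm9 genome to find copies with and without a site. The group A member aligned to 73.1% of its group, the group B member to 95.2% and the group C member to 86.7%, so the copies found are not complete. The members had been required to hold a motif match, and whether this favoured copies with a match was not tested. Group A had 598 copies, 233 in the zone, of which 195 (83.7%) were between genes and 38 (16.3%) in introns. A site overlapped 100 of the 233 (42.9%), in nearly the same share between genes (42.6%) and in introns (44.7%), and 120 (51.5%) had no peak in any sample. Group A copies with an exact motif match overlapped a site in 86 of 164 cases (52.4%), those with 1 mismatch in 14 of 50 (28%), and those with 2 mismatches or no match in 0 of 7 and 0 of 12, which allows a share of up to 42.9% and 25% in so few copies. Whether the copies not found by this alignment have the same shares was not tested. Copies of all groups were counted in the mm9 assembly, and whether each is present in the genome of the CCE cells was not tested.

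Group B had 1276 copies, 522 in the zone, and 33 (6.32%) overlapped a site, all among the 277 copies with 1 mismatch (11.9%). Group C had 1838 copies, 741 in the zone, and 12 (1.62%) overlapped a site. No peak was found in any sample at 430 group B copies (82.4%) and 698 group C copies (94.2%). Reads from near-identical copies can be hard to place, and its part in which copies had a peak was not tested.

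**Figure D5:**
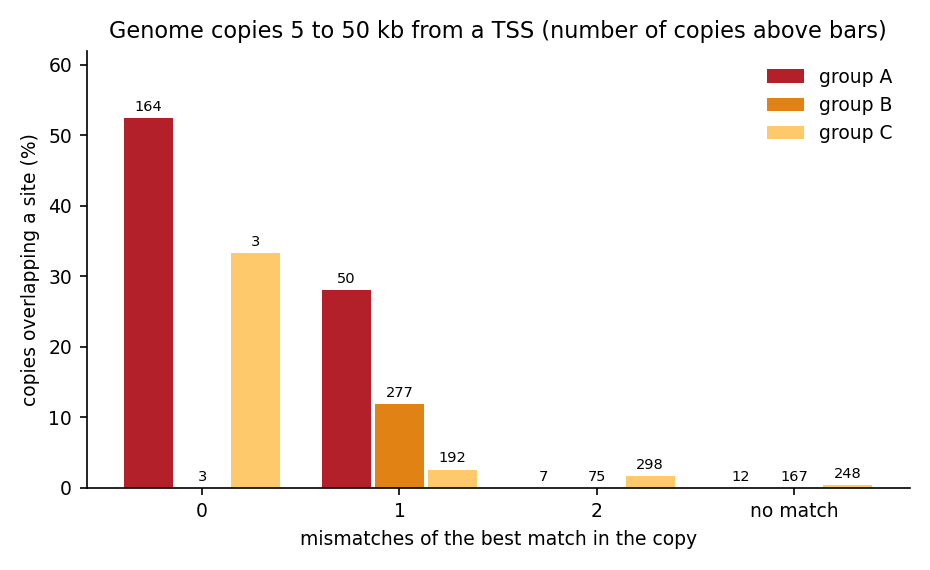
Share of the genome copies of groups A, B and C in the zone 5 to 50 kb from a TSS that overlapped a site (vertical axis, %) by the mismatches of the best motif match in the copy (horizontal axis), with the number of copies above each bar. Group A falls from 52.4% of 164 copies with an exact match to 28% of 50 with 1 mismatch and none of the 7 and 12 copies beyond, and the group C bar at 0 mismatches rests on 3 copies.

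The sites had 378 nearest genes, 1.69% of the 22348 protein-coding genes of the annotation. Of 307 genes in 9 lists of pluripotency, lineage, signalling, chromatin and cell cycle genes, 6 (1.95%) were the nearest gene of a site, a share near that of all genes. The best motif matches of 5 of these sites are shown to compare them with the high sites. The Spry4 site, which scored highest among the sites of listed genes, is not among those shown. Last comes the match of the Uchl3 site, which had the lowest geometric mean score of any site with a match. Capitals mark the match, which is exact for Zfp42 and Otx2 and has 1 mismatch for the rest.
Zfp42 (chr8:44417028-44417064, plus strand): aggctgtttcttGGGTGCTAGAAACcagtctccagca
Otx2 (chr14:49320767-49320803, plus strand): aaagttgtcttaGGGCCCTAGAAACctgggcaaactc
Prdm1 (chr10:44155082-44155120, plus strand): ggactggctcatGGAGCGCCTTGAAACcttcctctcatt
Etv5 (chr16:22402938-22402975, plus strand): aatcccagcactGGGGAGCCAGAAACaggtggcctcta
Kdm2b (chr5:123325652-123325690, minus strand): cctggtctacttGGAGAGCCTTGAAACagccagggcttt
Uchl3 (chr14:102060594-102060632, plus strand): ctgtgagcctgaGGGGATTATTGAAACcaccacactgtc
None of the sites printed here was in group A.

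In the pluripotency list, 1 of 36 genes was nearest to a site: Zfp42 (Rex1), a marker of undifferentiated ESCs, 24.7 kb from an intergenic site with scores of 21.11, 18.12, 11.31 and 10.31. Of 35 lineage transcription factors it was Otx2, a homeodomain factor of the epiblast and forebrain, 33.5 kb from an intergenic site with 15.09, 27.73, 12.59 and 6.72. At both sites the B1 values were above the B6 values. Of 32 FGF and ERK pathway genes there were 2. Spry4, an inhibitor of the pathway, lay 25.1 kb from an intergenic site with 65.82, 61.05, 80.79 and 54.32, and Etv5, an ETS factor downstream of it, had a site in its intron 7, 33.6 kb from the TSS, with 4.1, 7.84, 13.31 and 9.78. The Spry4 site was above the other sites of listed genes in every sample. The FGF receptor gene Fgfr2 held in its intron 2 a site whose nearest TSS was that of Htra1, with 26.91, 50.99, 45.35 and 32.97 and no motif match, and it was looked at after its value was seen.

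Of 44 chromatin regulators 1 was named, Kdm2b, a histone demethylase, with a site in intron 21 at 12.13, 19.14, 13.92 and 13.92. Of 15 PRDM genes it was Prdm1 (Blimp1), a transcriptional repressor, 23.4 kb from an intergenic site with 9.85, 10.59, 20.39 and 16.0. The clones overlapped at Kdm2b, and the B6 values were above the B1 values at Prdm1. No gene was named in the lists for TGF-beta, Nodal and BMP signalling (42 genes), Wnt signalling (53), cell cycle (39) and neurotrophin signalling (14). The lists are partial. Dkk4, a secreted Wnt inhibitor, and Sfrp4 were nearest to sites but were not in the Wnt list. Atrx, a chromatin remodeller, was nearest to sites but was not in the list of chromatin regulators.

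There were 16 genes with 2 sites, with a gap between the sites of 0.586 to 257.0 kb, and distances run from the TSS of the gene nearest to each site, which need not be the same TSS for both (at Tiam1 the sites were 257.0 kb apart). At 3 genes both sites were in group A: 4930533K18Rik (geometric means 98.4 and 94.7, 0.586 kb apart), Armcx4 (18.2 and 34.8) and Atp6v1c1 (47.9 and 80.4). The 3 most unequal pairs each joined a group A site to one outside it. Tmem45b had 272.2 in group A and 19.2 outside the groups, Tiam1 242 in group A and 17.2 outside, and Atrx, a chromatin remodeller, 106.9 in group A upstream and 19.3 in group B within an intron. Pairs without a group A site differed by at most 3.5 times. Among them were Mob2 (15.7 and 15.8), Erg, an ETS factor (56.5 and 24.2), Ninj2 (24.5 and 13.2), the integrin gene Itgb3 (8.12 and 28.4, 0.66 kb apart) and Apol7a (77.9 and 24.7). The pairs at Fnbp1, Lpcat1, Prmt2, Smndc1 and Zcchc24 differed by 1.32 to 1.94 times. Of these, Prmt2 (1.51 times), Smndc1 (1.94) and Zcchc24 (1.34) also joined a group A site to one outside it. At Prmt2 the group A site was the lower one, with 11.6 against 17.5.

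Some genes had both a site and a promoter-proximal interval. Of the 378 nearest genes, 11 (2.91%) were also nearest to a promoter-proximal interval, which is 4.18% of the 263 genes of those intervals, and 10 (2.65%) were also nearest to a far distal one, 4.41% of 227 genes. The shares of 4.18% and 4.41% stand beside 1.69% of all protein-coding genes that were nearest to a site, and the difference was not tested. Ctdsp1, a phosphatase gene, was nearest to an intronic site at 50.16 and promoter-proximal intervals at 221.4 and 132.6. Tbc1d9 had a group A site at 24.84 and a promoter-proximal group A interval at 193.9. At Eif2b5, a translation initiation factor subunit, the site was the higher one, with 35.12 against 12.84, and both were in group B. The sites were the higher ones at 4 of the 11 genes, Eif2b5, Pde4d, Atrx and 4921524J17Rik. These genes were looked at after their values were seen.

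The lowest geometric means were at an intergenic site near Sfrp4, with scores of 4.1, 4.8, 4.87 and 7.37 and no motif match, in intron 2 of Uchl3, with 4.98, 3.58, 7.01 and 9.12, and near Nxph3, with 9.46, 7.51, 6.39 and 2.89. Every score at these sites was below 10. The largest spread over samples was at the Mylk2 site, which lies in exon 11 of Tpx2, with 1.61, 17.95, 20.57 and 4.88, followed by Gm9873 with 24.58, 6.96, 1.4 and 9.59 and Rab18 with 8.92, 15.11, 2.48 and 19.91. At all 3 the values of the clones overlapped. A further 131 intervals at 5 to 50 kb from a TSS had a peak in 3 of the 4 samples, with a median score of 9.74, and 73 of them lacked replicate 4, the shortest list.

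The intervals at the limits of distance are given with their geometric mean score. Just under 5 kb, and so left out, were those near Tmem192 (4.816 kb, 14.8), C77080 (4.879 kb, 12.1) and Pde1b (4.953 kb, 101.2). Just over 5 kb were the sites near Olfr510 (5.03 kb, 13), Adrb3, a beta-adrenergic receptor (5.09 kb, 136.3), and Nupl1 (5.12 kb, 18.7). Just under 50 kb were those near Defb48 (49.2 kb, 10.8), Tob1 (49.7 kb, 29.9) and Gm13138 (49.8 kb, 26.5), and just over it, and left out, those near 3110043O21Rik (43.9), Vgll3 (86.7) and Phkb (25.3).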

How the data were processed

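ChIP-seq peak lists of 4 anti-GFP samples from CCE ESCs were used. The authors aligned the reads to the mm9 genome using Stampy, then called peaks against the IgG controls with MACS2. MACS2 and mm9 are also named in the submitters' processing notes. The deposited lists give a score for each peak, whose scale is not named in the sources used here, and the lowest value in them was 1.3. They hold no read counts, so depth per sample is unknown and no interval could be given for a score. The 95% intervals given with shares are exact binomial ones, for counting error alone. The 4 samples are 2 precipitations from each of 2 clones, treated as replicates of 1 condition, and p-values describe these samples. The IgG samples had no peak list that was used here. Peaks on the mitochondrial genome and on unplaced sequence were left out.

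Peaks were merged at an overlap of 1 bp, and an interval took the highest score of each sample. Distances ran from the interval's centre to the nearest of 51694 protein-coding transcripts (22348 genes) of an mm9 gene annotation. A centre in an exon of a protein-coding transcript was exonic, in an intron intronic, and elsewhere intergenic. Background bases were sampled every 10 bp. Similarity used BLAST+ 2.17.0 (E-value 1e-10, 100 bp, 70% identity, groups of 3 or more). At each GAAAC 1 motif match was counted, that with the fewest mismatches and then the longest spacer. Scripts used Python 3.11.15 with numpy 2.4.6, scipy 1.17.1 and matplotlib 3.10.9. Merging, distance, place, motif and grouping steps were tested on simulated data and recovered 300 of 300 shared intervals, 200 of 200 distances, places and motifs, and 100 of 100 group calls. The simulated sequences were random, with families more alike than the 70% limit and motif spacers without G. They do not test the steps on genomic repeats or on matches that fit several motif forms. Two-sided Fisher's exact tests over intervals were adjusted by Benjamini-Hochberg over 6 comparisons at a threshold of 0.05. The members and gene lists were chosen with earlier results of these data known. Genes named were those nearest to the 12 highest sites, those in the lists, those with 2 sites, the 3 on either side of each distance limit, the 3 lowest sites and the 3 with the largest spread. Others were named after their values were seen. The motif sequence of 1 site is not reported here. Alternatives were a minimum score of 10 or 20, other definitions of position, TSS, overlap, motif and similarity, and leaving out each replicate.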

Additional observations from a re-analysis of the deposited data

Results flagged for a closer look

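In 5 sites with 4 scores, 1 sample stood far from the other 3. Replicate 1 had 6.09 at the first Armcx4 site (the others 26.21, 26.3 and 25.86), 12.42 at the second Mob2 site (17.3, 17.43 and 16.75) and 26.94 at the second Prmt2 site (7.3, 8.77 and 10.59). Replicate 3 had 137.15 at the second Atrx site (96.38, 100.85 and 97.91) and 297.45 at the Ltc4s site (205.04, 216.94 and 213.42). The median score of all peaks was 15.2 in replicate 1, apart from 13.7, 13.8 and 13.8 in the others. These were 6 of 68 sets tested, and chance alone marks about 1 in 20.

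Outside the chromosomes analysed, replicate 3 held 15 peaks on the mitochondrial genome, where the other 3 samples held 0. The difference was not tested.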

How the results depend on the processing

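Leaving out each replicate gave 405 to 467 sites, and a minimum score of 20 gave 183 sites and 180 nearest genes. With TSSs of every biotype the median distance was 16.2 kb. The ratio of intronic to intergenic scores was 0.895 and 0.861 at a minimum score of 10 and 20, 1.03 with every biotype, 0.891 with arithmetic means, and 0.913 to 1.03 as each replicate was left out. The exact motif share was 55.1% and 65% at a minimum score of 10 and 20, 81.2% with up to 1 mismatch and 92.1% with up to 2. The excess of exact motifs over promoter-proximal intervals, 9.71 points, was 9.1 points at a minimum score of 20 (exact test, adjusted p = 0.14), 0.393 points outside the similarity groups and 0.641 points outside groups of central windows, the last chosen after seeing the data. The difference from far distal intervals, -1.22 points, was 2.02 points at a minimum score of 10, 0.0821 points outside the groups and 1.13 points outside central groups, and was never past the threshold. The intronic minus intergenic motif difference, -10.4 points, was -0.756 points outside the similarity groups and -0.666 points outside central groups, both chosen after seeing the data, -5.21 points with up to 2 mismatches, -11.5 points with up to 1 mismatch (exact test, adjusted p = 0.011) and -11.4 to -9.96 points as each replicate was left out, with an adjusted p below 0.05 without replicate 1 (0.0349) and without replicate 4 (0.0478). The causes were not tested. The 3 comparisons of similarity groups kept direction and side of the threshold under every alternative run, with the largest adjusted p (0.0488, exact test) for sites against far distal intervals with every biotype. In that setting 37.9% of intronic (58 of 153) and 63.4% of intergenic sites (168 of 265) were grouped. This difference was -25.5 points, against -36.2 points in the main setting. The difference from far distal intervals was -10.4 points, against -16.3 points. No paired analysis was possible because only the anti-GFP samples have peak lists used here, so the replicate numbers they share with the IgG samples pair nothing. Without read counts, peaks just under the caller's limit cannot be told from absent ones.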
